A study of Mus musculus with 57 samples.

Results

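Podocyte-like cells were compared with the other Wt1 cells of a set of 57 single kidney cells. A podocyte-like cell had Wt1 at RPKM 300 or more and Synpo at RPKM 50 or more, where RPKM is reads per kilobase of gene scaled to the mapped reads of a cell. The other Wt1 cells had Wt1 at RPKM 20 or more, Synpo below RPKM 50 and Pax8, a transcription factor of nephron epithelium, at RPKM 5 or more. Of the 57 cells, 3 were podocyte-like (cells 2, 10 and 34), 32 were other Wt1 cells and 22 fell in neither class. All cells of both classes came from 1 pool of 2 kidneys of Tg(Crym-EGFP)82Gsat mice at postnatal day 4, Theiler stage TS27, on a mixed strain background, with no further treatment in the labels. In these mice a bacterial artificial chromosome drives EGFP from the Crym gene, and the labels name the renal vesicle as the sampled component. Kidneys were digested with trypsin, sorted by fluorescence and captured on a Fluidigm C1 chip, whose capture sites were inspected for single cells. Because all cells share 1 pool and the classes were cut from measured values, cells were not treated as replicates, and every comparison is a description without a test.

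Podocytes are the epithelial cells that wrap the glomerular capillaries, and their interlocking foot processes are joined by the slit diaphragm, which filters the blood. They descend from the Wt1-expressing proximal side of the renal vesicle, pass through comma-shaped and S-shaped bodies, leave the cell cycle and then build foot processes and, with endothelial cells, the glomerular basement membrane. Wt1 itself encodes a zinc finger transcription factor needed first in nephron progenitors and later in podocytes, and Synpo encodes synaptopodin, an actin-associated protein of foot processes.

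The cells were chosen by their Wt1, Synpo and Pax8 values, so these are given as a description only. Wt1 (chr2:104966686-105013771 on mm9) stood at RPKM 1382 in cell 2, 1019.5 in cell 10 and 865 in cell 34, and Synpo at 142, 77.3 and 56.6 in the same cells. Over the 32 other Wt1 cells Wt1 had a lowest value of 21.5, a median of 165 and a highest value of 566, and Synpo was listed at 0 in all of them. Among the podocyte-like cells, cell 34 lay nearest to both limits, with Wt1 at 865 and Synpo at 56.6. Just outside, cell 49 had Wt1 at 566 with Synpo at 0, cell 53 had Synpo at 59.3 with Wt1 at 0.33, and cell 13 had Synpo at 22.3 with Wt1 at 35.3. At the lower limit for Wt1, cell 23 was kept at 21.5 and cell 47 was left out at 10.9. No cell lay between Wt1 566 and 865. Pax8 remained at 654, 157 and 355 in the podocyte-like cells, within the 15.8 to 1127, median 303 of the others.

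**Figure D1:**
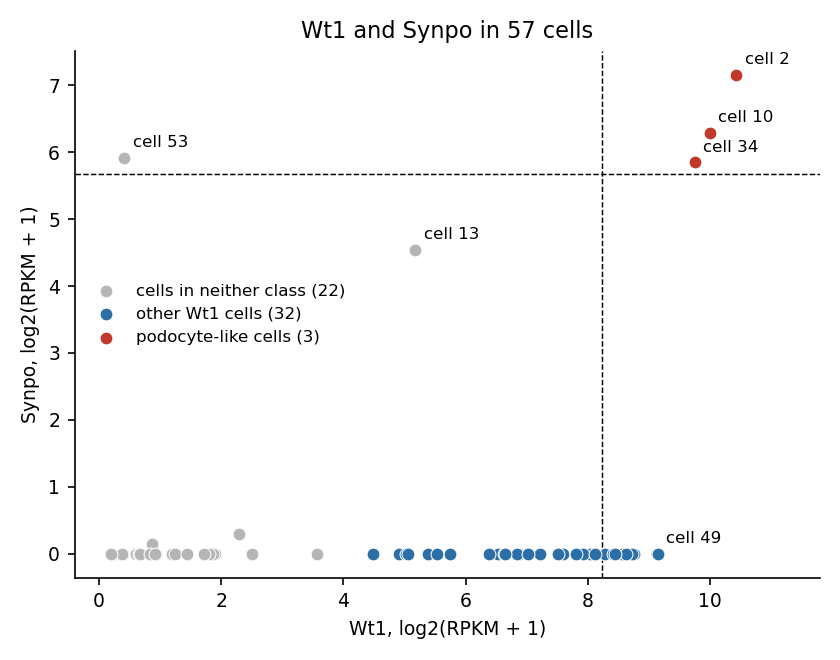
Wt1 (horizontal axis) and Synpo (vertical axis) in 57 cells as log2(RPKM + 1), 1 point per cell, coloured by class, with dashed lines at RPKM 300 for Wt1 and RPKM 50 for Synpo. The 3 podocyte-like cells stand alone in the upper right, while cells 53 and 13 hold Synpo with little Wt1.

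The label was checked against podocyte markers that the rule did not use. Podxl (chr6:31469493-31513937 on mm9), which encodes the sialomucin podocalyxin that coats foot processes, stood at RPKM 51.3 in cell 2, 66.5 in cell 10 and 16.6 in cell 34. It was listed at 0 in 29 of the 32 other Wt1 cells and reached 2.19 at most, so the classes did not overlap. Nphs1 (chr7:31243332-31273628 on mm9), encoding nephrin, the backbone of the slit diaphragm, stood at 27.9 in cell 2 and 24.8 in cell 10 and was listed at 0 in cell 34. The highest other Wt1 cell had 0.244. The podocyte-like cells therefore carried the markers of their label, with nephrin listed at 0 in 1 of them.

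Differences below are the mean log2(RPKM + 1) of the 3 podocyte-like cells minus that of the 32 other Wt1 cells, a scale that understates the change of low genes. Detection meant a value of RPKM 1 or above, and 10438 of 12087 genes entered the comparison because at least 3 of the 35 cells detected them. A gene was called higher at a difference of 2 or more with detection in at least 2 podocyte-like cells, and lower at -2 or less with detection in at least 16 of the other cells. By this rule 740 genes (7.09%) were higher and 917 (8.79%) were lower in podocyte-like cells, and the median difference over all genes was -0.43. In 25 genes (0.24%) all podocyte-like cells lay above every other Wt1 cell, and in 15 genes (0.144%) all lay below. Without cell 2 the higher genes numbered 1165, and without cell 34 they numbered 1147, with detection in 1 of the remaining 2 cells then enough for a call. Still called without cell 2, 10 or 34 were 545, 550 and 521 of the 740 higher genes. For the 917 lower genes these numbers were 795, 798 and 760. Of the 740 higher genes, 401 were detected in all 3 podocyte-like cells and 339 in 2, while 463 of the 917 lower genes were detected in none of the 3. In 4 of the 740 no other Wt1 cell reached detection, so these entered through the podocyte-like cells alone and could not overlap. Genes detected in fewer than 3 of the others also needed podocyte-like cells to enter, Podxl, Ptpro, Col4a3, Itga3 and Junb among them. In all, 467 of the 740 higher genes were detected in fewer than 16 of the others.

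Podocyte-like cells had 3815, 4036 and 3701 genes detected (cells 2, 10 and 34), against 2857 to 6502 with a median of 4449.5 in the other Wt1 cells, of which 9 had no more than 4036. Read counts were not used here, but the smallest values gave a depth relative to the median cell of 0.538, 0.981 and 1.07, against 0.323 to 1.55 in the others. Against the 9 other Wt1 cells with no more than 4036 genes detected, a comparison added after seeing the data, 6398 genes entered. A lower call then needed detection in 5 of the 9. Of the genes that entered, 931 (14.6%) were higher and 536 (8.38%) lower, and the median difference over them was -0.02. With all 32 the shares were 7.09% higher and 8.79% lower. Those rest on more genes and on another detection limit, so the shares do not compare directly. Still called against the 9 cells were 632 of the 740 higher genes and 436 of the 917 lower genes. Calls were then 63.5% higher, against 44.7% with all 32. Genes that most cells use were listed at 0 in some cells of both classes. Hprt, a purine salvage enzyme, stood at 1.88, 0 and 1.42 in podocyte-like cells and at 0 in 4 of the others. A value of 0 therefore says only that a gene is listed at 0. Across genes, the podocyte-like cells correlated with each other at Spearman rho 0.399, 0.394 and 0.433. The median rho of each with the other Wt1 cells was 0.355, 0.365 and 0.350 for cells 2, 10 and 34, and the highest single value was 0.395. The other Wt1 cells correlated with each other at a median of 0.412, from 0.295 to 0.496, and the values between podocyte-like cells lay within that range. All these cells share 1 sequencing lane and 1 pool, and genes are not independent replicates.

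Lists of podocyte genes covered the slit diaphragm, the foot process cytoskeleton, proteins of the surface, matrix and secretion, and transcription factors. Wt1 and Synpo left out, together they held 93 genes that entered, and 10 further genes had values but were detected in too few cells. Of these, 32 (34.4%) were called higher and 4 lower, beside 7.09% and 8.79% of all genes, and the median difference was 1.12 beside -0.43 for all genes. The mean log2(RPKM + 1) over all members with values, the podocyte mean, was 3.58, 3.36 and 3.33 in cells 2, 10 and 34. In the other Wt1 cells it ran from 1.23 to 2.80 with a median of 2.02, and none of the 22 cells in neither class reached the podocyte-like cells.

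Slit diaphragm genes were uneven. Nphs1 was detected in 2 of 35 cells and so did not enter the comparison. Of 13 members that entered, 3 (23.1%) were called higher and 1 (7.69%) lower, with a median difference of 0.82. Cldn5, a tight junction claudin also made by podocytes, stood at 393, 209 and 76 (difference 4.56), against 0 to 350.2, median 2.98 in the others, and 7 of the others reached the lowest podocyte-like cell. Cd2ap, the adaptor that ties the slit diaphragm to actin, stood at 116, 185 and 127 against 0 to 251, median 34.5 (difference 3.06). Fyn, a kinase that phosphorylates nephrin, was called higher through cells 2 and 34 alone, at 49.1 and 110.0, and stood at 0.188 in cell 10. Nck1, an adaptor that binds phosphorylated nephrin, was listed at 0 in all 3 and had a median of 5.64 in the others (difference -2.94), while the related Nck2 did not pass the rule at 1.91. Kirrel, encoding the nephrin partner Neph1, was listed at 0 in all 3 podocyte-like cells and detected in 3 of the others.

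Actin and adhesion genes of the foot process were called higher in 11 of the 28 members that entered (39.3%). None was called lower, and the median difference was 1.19. Arhgap24, which restrains Rac, stood at RPKM 45.9 in cell 2, 20.5 in cell 10 and 16.8 in cell 34, and only 1 other Wt1 cell, at 19, reached into that range (difference 3.94). Pdlim2, an actin-associated adaptor, stood at 107, 6.38 and 103 and was detected in 4 of the 32 others (difference 5.04). Parva and Ilk encode partners of a complex that couples integrins to actin. Parva stood at 41, 45.5 and 268 against a median of 2.22 (difference 3.98), and Ilk at 187, 205 and 52.9 against 35.8 (difference 2.18). Slc9a3r1, a scaffold that anchors podocalyxin, stood at 366, 23.4 and 9.28 (difference 3.99), and its paralogue Slc9a3r2 at 0, 137 and 26.2 (difference 3.62). Cell 2 was highest for the first and listed at 0 for the second. The remaining members called higher were Pls3 (4.08), Mtss1 (3.25), Vim (2.96), Palld (2.50) and Arhgdia (2.48). Coro2b, an actin-binding coronin, was at 57.8 in cell 10 and 47 in cell 34, was listed at 0 in cell 2 and in all 32 others, and did not enter. General actin regulators did not pass the rule: the difference was -0.99 for Actn4, 0.02 for Myh9, 0.01 for Cfl1 and -1.61 for Rhoa.

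Surface, matrix and secreted proteins held the largest share of calls among these lists. Of 31 members that entered, 15 (48.4%) were called higher and 1 (3.23%) lower, with a median difference of 1.81. Ptpro (chr6:137200820-137413154 on mm9), a receptor tyrosine phosphatase of the podocyte apical membrane, stood at RPKM 138 in cell 2, 74.6 in cell 10 and 265 in cell 34. It was listed at 0 in 26 of the others and reached 21.7 at most, so the classes did not overlap (difference 6.92). Too few of the others detected Ptpro for it to enter without podocyte-like cells. Collagen IV of the mature glomerular basement membrane contains the products of Col4a3 and Col4a4, which lie head to head on chromosome 1. Col4a4 stood at RPKM 3.41 in cell 2, 61.6 in cell 10 and 72.9 in cell 34, with no other Wt1 cell above 0.107 (difference 4.76). It entered the comparison through the podocyte-like cells alone, so its lack of overlap followed from the filter. Col4a3 stood at 37.2, 1.04 and 294 and was detected in 2 of the others, too few to enter without podocyte-like cells (difference 4.62). The pair did not keep a fixed ratio, since cell 2 had more Col4a3 and cell 10 more Col4a4. Col4a5, which encodes another chain of that network, did not pass the rule at 0.21.

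Laminin and laminin receptor genes gave smaller levels. Lama5 and Lamb2 encode chains of the laminin of the mature basement membrane. Lama5 was low but present in all 3 cells at 5.17, 3.5 and 7.21, against 4.52 at most in the others (difference 2.32), and Lamb2 stood at 23.9, 58.1 and 0.227 (difference 2.56). Itga3, the integrin subunit that binds this laminin, stood at 174 in cell 2 and 152 in cell 10 and at 0.121 in cell 34, with a highest value of 19.9 in the others (difference 4.75). Lama1, a laminin chain of the immature basement membrane, was listed at 0 in all 3 podocyte-like cells and detected in 18 of the others (difference -2.23). Nid2, encoding a basement membrane nidogen, was the only member of the surface list called lower (-2.77). In a wider extracellular matrix list, which holds these collagen and laminin genes too, 10 of 31 members were called higher and 4 lower. These were 32% and 13% of that list, beside 7.09% and 8.79% of all genes.

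Peptidases and receptors of the podocyte surface completed the list. Robo2, a receptor for Slit proteins, stood at RPKM 18.9 in cell 2, 112 in cell 10 and 48.4 in cell 34, above all but 1 of the other Wt1 cells (difference 5.24). Dpp4, Enpep and Mme encode surface peptidases, with differences of 4.85, 3.94 and 3.33. Plat, the tissue plasminogen activator, stood at 91.4, 295 and 148 against a median of 42.8 in the others (difference 2.86). Bmp7, a growth factor of nephron and podocyte survival, was listed at 0 in cell 2 and stood at 178 and 97.2 in cells 10 and 34 (difference 4.11). Npr3, the clearance receptor of natriuretic peptides, followed at 2.47 with cell 34 listed at 0. Vegfa, the endothelial growth factor that podocytes secrete, did not pass the rule at 5.2, 30.4 and 3.2 against a median of 1.83 (difference 1.49). Tspan8 was at 415 in cell 34 and listed at 0 in the other podocyte-like cells and in all 32 others.

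Transcription factors of podocytes were called in both directions. Tcf21, a basic helix-loop-helix factor, stood at 138, 892 and 1474 against 0 to 512, median 2.33 (difference 5.91), and 6 of the others reached the lowest podocyte-like cell. Foxc2, a forkhead factor of early podocytes, stood at 202, 64.4 and 15.7 against a median of 4.05 (difference 3.01), and 11 of the others reached cell 34. Tcf21 was thus already present in part of the other Wt1 cells, with detection in 19 of 32. Of 22 factors that entered, Wt1 included, 4 (18.2%) were called higher and 2 (9.09%) lower, and the median difference was -0.29. Among all genes 7.09% were higher and 8.79% lower, so the share lower was close to that of all genes. Wt1, 1 of the 4 higher, was high by the rule that chose the cells. The 2 lower were Id1 (-2.18), an inhibitor of helix-loop-helix factors, and the Notch target Heyl (-2.21). Hey1, another Notch target, was high in both classes, at 43.6, 79.2 and 524 and a median of 73.4.

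**Figure D2:**
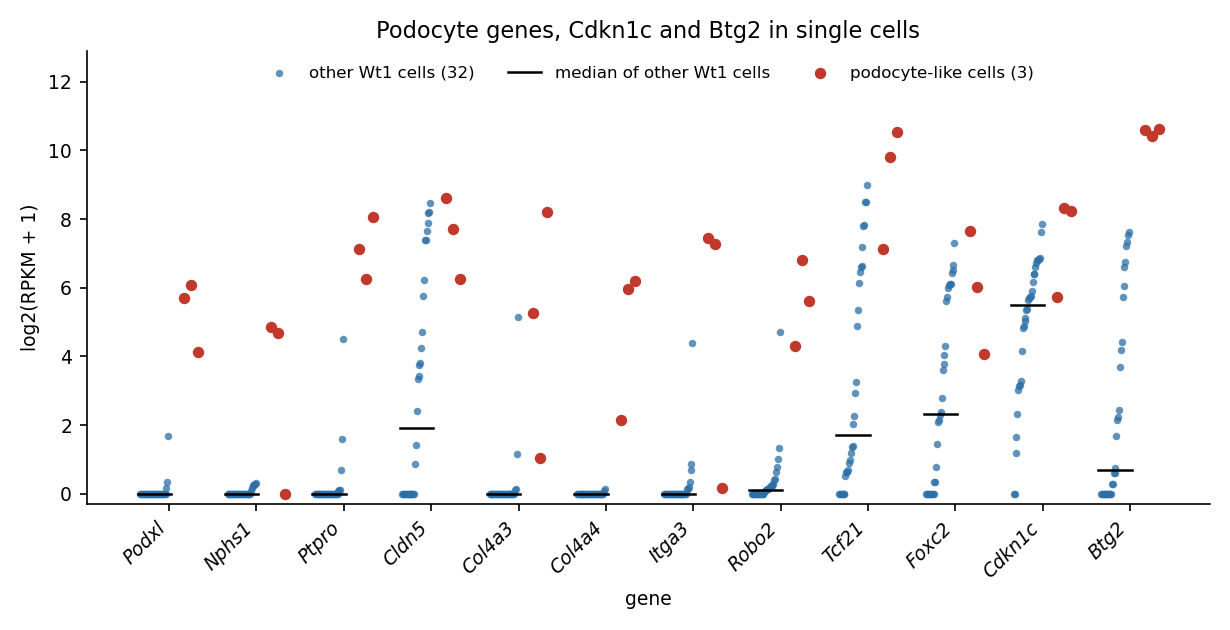
Levels of 12 genes as log2(RPKM + 1) in the 32 other Wt1 cells (small points, sorted within each gene, with the median as a bar) and in the 3 podocyte-like cells (large points, cells 2, 10 and 34 from left to right). Podxl, Ptpro, Col4a4 and Btg2 do not overlap between the classes, while Cldn5, Tcf21, Foxc2 and Cdkn1c do. Col4a4 entered the comparison through the podocyte-like cells alone, and Podxl and Ptpro needed these cells to enter.

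Among genes outside these lists, those with the largest differences were of mixed function. Btg2, an antiproliferative gene that is also an immediate early gene, had the largest, at RPKM 1534 in cell 2, 1369.9 in cell 10 and 1585 in cell 34. The other Wt1 cells had a lowest value of 0, a median of 0.605 and a highest value of 196 (difference 8.10), without overlap, and cell 25 of neither class, rich in the macrophage gene C1qb, reached 792. Frem1 and Fras1 encode basement membrane proteins of the Fraser complex. Frem1 stood at 81.1, 76.4 and 159.8 against 11.6 at most (difference 6.48, no overlap), and Fras1 at 154, 48.8 and 102 against a median of 17.2 (difference 2.54). Pxdn, whose product crosslinks collagen IV, stood at 68.2, 158 and 94.3 against 62 at most (difference 4.50, no overlap). Surface molecules without overlap also included Gpc1, a glypican, at 406, 298 and 616 against 0.462 to 141, median 43.1 (difference 3.61), and Lgr4, a receptor for R-spondins, at 537, 811 and 477 against 9.19 to 470.5, median 60.5 (difference 3.22). Meis3, a homeobox gene, stood at 143, 19.4 and 41.4 against 6.75 at most, and Ndrg1, a stress-responsive gene, at 18.7, 40.3 and 149 against 1.21 at most. Fras1 left out, each podocyte-like cell thus exceeded all 32 others for these genes by its own amount. Among the 3 cells Meis3 and Ndrg1 differed most, at 19.4 to 143 and 18.7 to 149.

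The rest of the 15 largest differences included Tcp11l2 (6.88), Npl (6.67), Schip1 (6.66), Cish (6.27), Acad8 (6.23), St3gal5 (6.18), Abcg1 (6.15), Sepp1 (6.04), Gpx3 (6.02) and Dmwd (5.96). Gpx3, an extracellular glutathione peroxidase, rested on cells 10 and 34, at 1844 and 528, and was at 0.831 in cell 2. Cxx1c (7.71) and Cxx1a (4.98) were both without overlap, but they belong to a family of near-identical copies, so their values are uncertain. Genes without overlap that are not described elsewhere included Fnta, Vamp8, Anxa2, Tax1bp3, Mknk2, Tmem163, Sgip1 and Mvp, with differences from 3.46 to 5.88.

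Guidance molecules, which shape foot processes and vessels as well as axons, were called higher in 5 of 23 members that entered (21.7%, beside 7.09% of all genes). The 2 called lower (8.70%) matched the 8.79% of all genes, and the median difference was 0.07. Beside Robo2, Nrp1, a semaphorin and VEGF receptor, stood at 32.1, 88.8 and 141 against a median of 0.755 (difference 4.73). The semaphorin gene Sema3f stood at 39.3, 15.6 and 113 (difference 4.13). Efnb2 (2.39) and Efna1 (2.47) encode ephrins and were higher. The ephrin gene Efna5 (-3.75) and its receptor gene Epha4 (-2.60) were lower, with Epha4 listed at 0 in all 3 podocyte-like cells.

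Some renal vesicle genes were lower. Of 24 members that entered, Pax8 left out, 7 (29.2%) were called lower, 1 (4.17%) higher and 16 neither, beside 8.79% and 7.09% of all genes. The median difference was -1.26, beside -0.43 for all genes. The mean log2(RPKM + 1) of the list was 0.922, 1.03 and 1.32 in cells 2, 10 and 34, below the lowest of the 32 other Wt1 cells at 1.53. Npy, a neuropeptide gene, stood at RPKM 2.32 in cell 2, 0 in cell 10 and 0 in cell 34. It was detected in all 32 others, with a lowest value of 1.08, a median of 234 and a highest value of 1799 (difference -6.83). Sfrp2, a secreted Wnt modulator, stood at 1.9, 0.346 and 0 against 1.54 to 606, median 166 (difference -6.37), and only 1 other cell was as low as cell 2. Low tails of the other Wt1 cells thus met the podocyte-like cells for both genes.

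Regulators of vesicle patterning were among the lower genes. Lhx1, a transcription factor required for the vesicle to pattern, stood at 2.67, 0.252 and 0 against 0 to 321, median 56 (difference -4.39). Jag1, a Notch ligand of the vesicle, stood at 2.63, 41.4 and 3.49 against 5 to 585, median 178 (difference -3.96), with cell 10 the highest of the 3. Tmem100 was under RPKM 1 in all 3 podocyte-like cells and had a median of 107 in the others (difference -4.95). Bmp4, a growth factor gene placed in the same list, went the other way at 59.6, 245 and 199.8 against 0 to 197, median 4.15 (difference 4.01). Wnt4 and Pax2, early vesicle genes, were not detected in any of the 3, but were detected in only 14 and 15 of the 32 others and did not pass the rule. H19, an imprinted noncoding RNA that belonged to no list, stood at 3.39, 1.59 and 0 against 0 to 2845, median 260.0 (difference -5.81).

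Calls in lists of neighbouring identities were few in number, but in some lists their share was above that of all genes. In the distal vesicle list 2 of 14 members were lower, Wfdc2 (-2.72) among them, and none higher (14.3% lower, beside 8.79% of all genes). Parietal epithelium genes, which mark the cells that line Bowman's capsule, had Lhx1 and Cd24a (-4.11) lower and only Wt1 higher among 10 (20.0% lower). With Wt1 included, the median difference of the parietal list was -1.31, and 2 of the 32 other Wt1 cells had a list mean no higher than the highest podocyte-like cell. In the Notch list 3 of 19 (15.8%) were lower, namely Jag1, Heyl and the protease gene Adam10 (-3.10), and Numb, a Notch antagonist, was higher (2.05). Notch2, the receptor of the proximal nephron, was similar in level, at 51.3, 37.1 and 38.4 against a median of 30.4 (difference 0.76). Nephron progenitor genes had Tmem100 lower and no other call among 15 (6.67% lower). Crym, whose promoter drives the sorted EGFP, was listed at 0 in all 3 podocyte-like cells and in 27 of the 32 others, and Six2 was listed at 0 in all 3 and in 23 of the others.

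Among the lists used here, those of cell cycle genes held the most lower genes. Of 68 genes of S phase, G2 and mitosis, all of which entered, 52 (76.5%) were called lower and none higher, beside 8.79% of all genes, and the median difference was -2.98. The mean log2(RPKM + 1) over the 68 genes was 1.26, 0.73 and 0.87 in cells 2, 10 and 34, against 0.859 to 5.68 with a median of 4.26 in the others. The S phase list had 26 of 33 members lower with a median of -3.43, and the G2 and mitosis list 26 of 35 with a median of -2.84. Against the 9 other Wt1 cells with no more genes detected, the difference in mean was -2.43 for S phase and -1.65 for G2 and mitosis, in place of -3.45 and -2.75. Across the 32 other Wt1 cells the cell cycle mean and the number of genes detected had a Spearman rho of 0.722, given as a description of cells that share 1 pool. The part of detection in the lower cell cycle values was not tested beyond this.

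Replication genes showed the pattern cell by cell. Mcm7, a subunit of the replicative helicase, stood at RPKM 0 in cell 2, 0 in cell 10 and 0.718 in cell 34, and the others had a lowest value of 0.913, a median of 204 and a highest value of 789 (difference -6.76). Rrm1, the large subunit of ribonucleotide reductase, stood at 0.95, 0.52 and 0.478 against 1.38 to 503, median 118 (difference -5.73). Neither gene overlapped between the classes, although the lowest other cells came close. The partner subunit Rrm2 stood at 0, 1.59 and 1.46 against 0.952 to 1903, median 309.6 (difference -6.51). Gmnn, an inhibitor of replication licensing, was listed at 0 in all 3 and in 3 of the others (difference -5.49), and Mcm3 (-5.49) and Uhrf1 (-5.39) were similarly low. Mcm4 was an exception in 1 cell, at 378 in cell 34 against 0 and 0.58 in cells 2 and 10. Pcna, the replication clamp that also serves DNA repair, kept a level of 346, 246 and 212 against a median of 429 and did not pass the rule (0.39).

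Mitotic genes followed. Cdk1, the mitotic kinase, stood at 0, 0.242 and 0.446 against 0 to 389, median 51.9 (difference -4.34), its cyclin gene Ccnb1 at 0.508, 0.299 and 0.275 against 0.234 to 1176, median 64.8 (difference -4.33), and Ccnb2 at 0 in all 3 (difference -4.42). Top2a, a topoisomerase of dividing cells, stood at 8.18, 0.747 and 1.6 against 0.993 to 934, median 126 (difference -4.25). Cell 2 kept the most mitotic transcripts of the 3, with Cenpa at 40.5, Ube2c at 28.5 and Mki67 at 8.54, while cells 10 and 34 had all of these below RPKM 1. Stmn1, a microtubule regulator abundant in cycling cells, stood at 4.78, 19.6 and 20.4 against 58.3 to 3452, median 2103 (difference -6.96), without overlap. The tubulin genes Tuba1b (-5.76) and Tuba1c (-5.52) and the chromatin protein genes Hmgb1 (-2.48) and Hmgn2 (-1.74) also lay below every other Wt1 cell. Fam60a, a subunit of a histone deacetylase complex, had the most negative difference of all, at 0, 1.03 and 3.44 against 40.3 to 1487, median 441 (-7.67).

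G1 regulators did not move as a block. Ccnd1, encoding cyclin D1, stood at RPKM 13.4 in cell 2, 2.1 in cell 10 and 39.4 in cell 34, against 0.124 to 1107, median 526 in the others (difference -4.62), and 4 of the others were no higher than cell 34. Ccnd2 (-3.05), Cdk2 (-2.53), E2f4 (-2.98) and Rbl1 (-2.08) were lower as well. Cdkn1c, the CDK inhibitor p57 of maturing podocytes, stood at 52.1, 316 and 299.9 against 0 to 229.9, median 44.4 (difference 2.54), and 13 of the others reached cell 2. Btg2 and Cdkn1c were the 2 higher members among 18 (11.1%), and 5 (27.8%) were lower, beside 7.09% and 8.79% of all genes. Cdkn1a was listed at 0 in all 3 podocyte-like cells, and Cdk4 stood at 486, 263 and 482 against a median of 728 (difference -0.61).

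**Figure D3:**
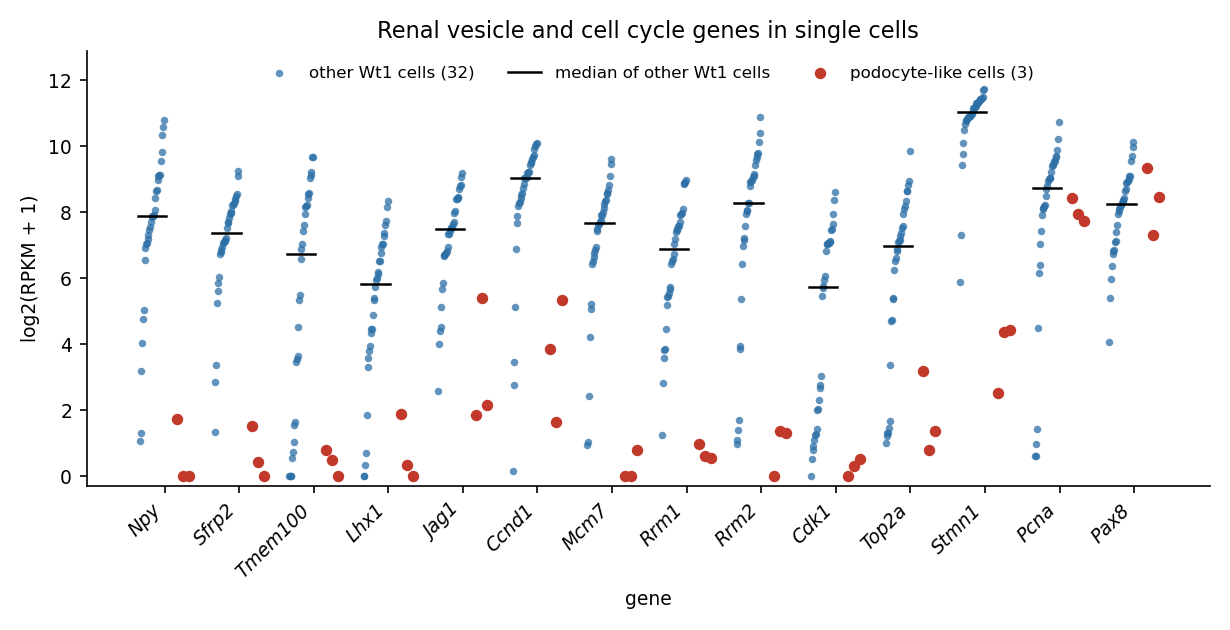
Levels of 14 genes as log2(RPKM + 1) in the 32 other Wt1 cells (small points, sorted within each gene, with the median as a bar) and in the 3 podocyte-like cells (large points, cells 2, 10 and 34 from left to right). Mcm7, Rrm1 and Stmn1 do not overlap, and Pcna and Pax8 lie within the range of the other Wt1 cells.

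Low cell cycle values were not confined to podocyte-like cells. Of the other Wt1 cells, cells 7 and 29 had cell cycle means of 0.874 and 0.859, within the range of the podocyte-like cells. Cell 7 had Wt1 at 559.9 and cell 29 at 82.8, and neither had Synpo, Nphs1 or Podxl above RPKM 2.19. Their podocyte means were 1.97 and 2.37, below the 3.33 of the lowest podocyte-like cell. Btg2 was listed at 0 in cell 7 and stood at 184 in cell 29. These 2 cells were picked out after their values were seen. Across the 32 other Wt1 cells, Wt1 and the podocyte mean had a Spearman rho of -0.036. The podocyte mean had one of 0.669 with the number of genes detected. The podocyte-like cells had the 3 highest podocyte means with fewer genes detected than the median other cell.

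**Figure D4:**
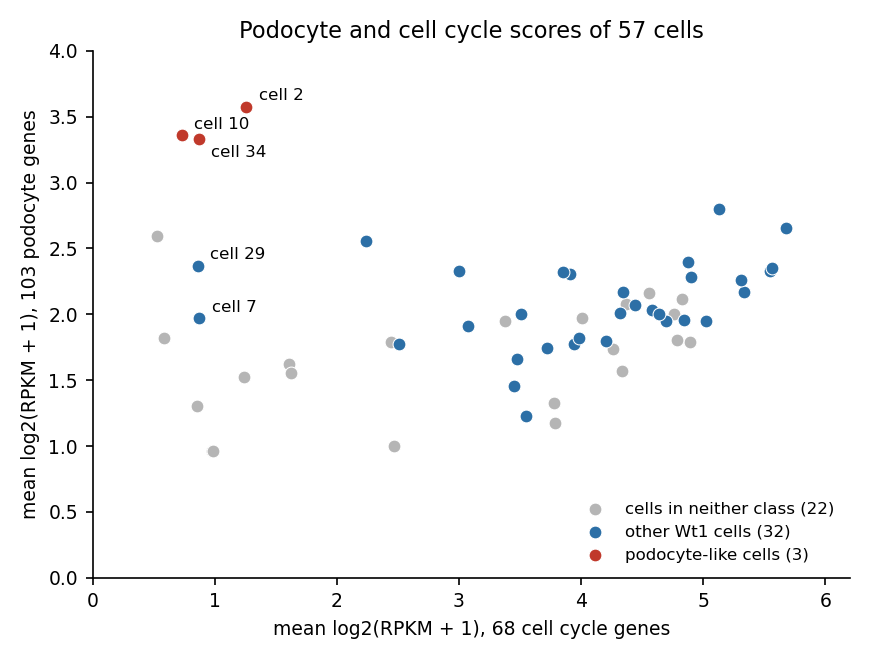
Mean log2(RPKM + 1) of 68 cell cycle genes (horizontal axis) and of the podocyte genes without Wt1 and Synpo (vertical axis) in 57 cells, coloured by class. The podocyte-like cells sit at the upper left, at 3.33 to 3.58 on the podocyte axis, and cells 7 and 29 share their low cell cycle values at a podocyte mean of 1.97 and 2.37.

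Promoter sequences of the called genes were searched for letters of known cell cycle elements and of a WT1 element. These 300-base promoters, from 250 bases before to 50 after the start site, come from RefSeq on build GRCm38.p6. E2F factors drive S phase genes, and the searched letters were TTTNNCGC, where N is any base. The cell cycle genes homology region, or CHR, is found in G2 and mitosis promoters and was searched as TTTGAA. Both strands were searched and overlapping matches were kept. E2F letters were in 11 of 26 promoters (42.3%) of 22 lower S phase genes, against 5.17% of all 32851 promoters and 1 of 25 promoters of the lower G2 and mitosis genes. CHR letters were in 18 of 25 promoters (72.0%) of 23 lower G2 and mitosis genes, against 17.9% of all promoters and 3 of 26 of the S phase promoters. The 33 promoters of 21 higher podocyte genes held no E2F match. Their count for GTGGGAG, a core of the WT1 response element, was 5 of 33 (15.2%), against 9.73% of all. A match describes the letters and does not show binding. The cell cycle genes came from lists of S phase and of G2 and mitosis genes, the kinds of gene these elements are known from. Listed genes that were not called lower were not compared, so the shares describe the lists and not the lower calls.

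Promoters of Mcm6, Cdk1 and Ptpro are shown from 120 bases to 1 base before the start site, with all matches to the 3 sets of letters in capitals, because they hold the letters of each kind in genes whose values differ between the classes. Mcm6, at 0.29, 0.159 and 0.584 in podocyte-like cells and a median of 62.3 in the others (difference -4.78), has 3 E2F matches, of which 2 overlap on opposite strands. Cdk1 has 2 CHR matches and, between them, 1 E2F match, and it is the promoter that holds the single E2F match among those of the lower G2 and mitosis genes. Ptpro, higher in podocyte-like cells without overlap, has 1 match to the WT1 core. On GRCm38.p6 they lie at chr1:128359706-128359825 on the minus strand, chr10:69352913-69353032 on the minus strand and chr6:137252179-137252298 on the plus strand.
Mcm6: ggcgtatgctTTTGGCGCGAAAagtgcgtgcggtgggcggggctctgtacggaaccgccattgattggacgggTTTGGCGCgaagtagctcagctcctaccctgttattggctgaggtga
Cdk1: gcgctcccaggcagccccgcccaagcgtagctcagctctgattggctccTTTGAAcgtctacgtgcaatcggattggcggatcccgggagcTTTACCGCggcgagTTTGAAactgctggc
Ptpro: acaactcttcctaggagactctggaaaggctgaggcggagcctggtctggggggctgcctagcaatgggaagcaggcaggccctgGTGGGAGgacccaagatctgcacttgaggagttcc

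Immediate early genes, which respond within minutes to stimuli and to tissue digestion, were also higher. Of 14 members that entered, 6 (42.9%) were called higher and none lower, beside 7.09% and 8.79% of all genes, with a median difference of 1.48 beside -0.43. Their summed RPKM over 20 genes was 3486, 2471 and 1833 in cells 2, 10 and 34, above the 41.8 to 1261 of the 32 other Wt1 cells. Most of this excess in cell 34 was Btg2. Over the other 19 genes, a sum added after seeing the data, the values were 1952, 1101 and 248, against 41.3 to 1258 with a median of 446, and 26 of the 32 others reached cell 34. Junb stood at 248, 44.3 and 7.16 against 4.5 at most in the others (difference 5.33, no overlap). Too few of the others detected Junb for it to enter without podocyte-like cells. Egr1 stood at 819.7, 151 and 107 against 0 to 295, median 0.77 (difference 5.08). Fos (3.59), Ier2 (3.63) and Zfp36 (4.04) were each detected in 2 of the 3. The share of this response in the podocyte and cell cycle differences was not tested.

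Macrophage genes were low, and markers of some other cell types reached single podocyte-like cells. The 15 macrophage genes summed to 2.95, 2.62 and 16.0 in cells 2, 10 and 34, with none detected in all 3 and 6 listed at 0 in all 3. Sums in the 32 others were 0 to 204, and in the 5 cells of neither class richest in C1qb they were 11259 to 21462. Endothelial genes (4 with values) summed to 0, 119.5 and 0, and the value of cell 10, all from Ramp2, lay above the 0 to 107, median 1.05 of the others. The other 3 endothelial genes were listed at 0 in all 3. Stromal genes (10) summed to 87.0, 149.5 and 72.3 against 1.66 to 1792, median 124. Mesangial and smooth muscle genes (7) summed to 95.6, 4.81 and 0 against 0 to 1005, median 19.8, with 5 of them listed at 0 in all 3. Ureteric bud and collecting duct genes (4) summed to 79.5, 7.34 and 0 against 0 to 421, median 3.24. Proximal tubule genes (7) summed to 19.0, 17.0 and 1.65 against 0 to 413, median 5.33. The part of these markers in the differences was not tested. Col1a2 of the stroma (2.26) and Dab2 of the proximal tubule (2.21) were the members of these lists called higher. They were 1 of 6 stromal genes that entered (16.7%) and 1 of 4 proximal tubule genes (25.0%), beside 7.09% of all genes. Few members of these lists entered, so the shares are coarse. Housekeeping genes had 4 of 19 (21.1%) lower and none higher, beside 8.79% and 7.09% of all genes, with a median difference of -0.55. Their mean log2(RPKM + 1) was 5.90, 6.09 and 7.04 in cells 2, 10 and 34, against 6.24 to 8.09 in the others. Cells 2 and 10 thus lay below every other Wt1 cell. The part of this in the lower calls was not tested. Glycolysis genes had 4 of 17 (23.5%) lower, namely Pgk1 (-2.88), Tpi1 (-3.27), Pgam1 (-2.83) and Pkm2 (-2.61), and 1 (5.88%) higher, Aldoa (2.23). Their mean log2(RPKM + 1) was 2.73, 2.76 and 4.14 in cells 2, 10 and 34, against 3.14 to 5.48 in the others.

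**Figure D5:**
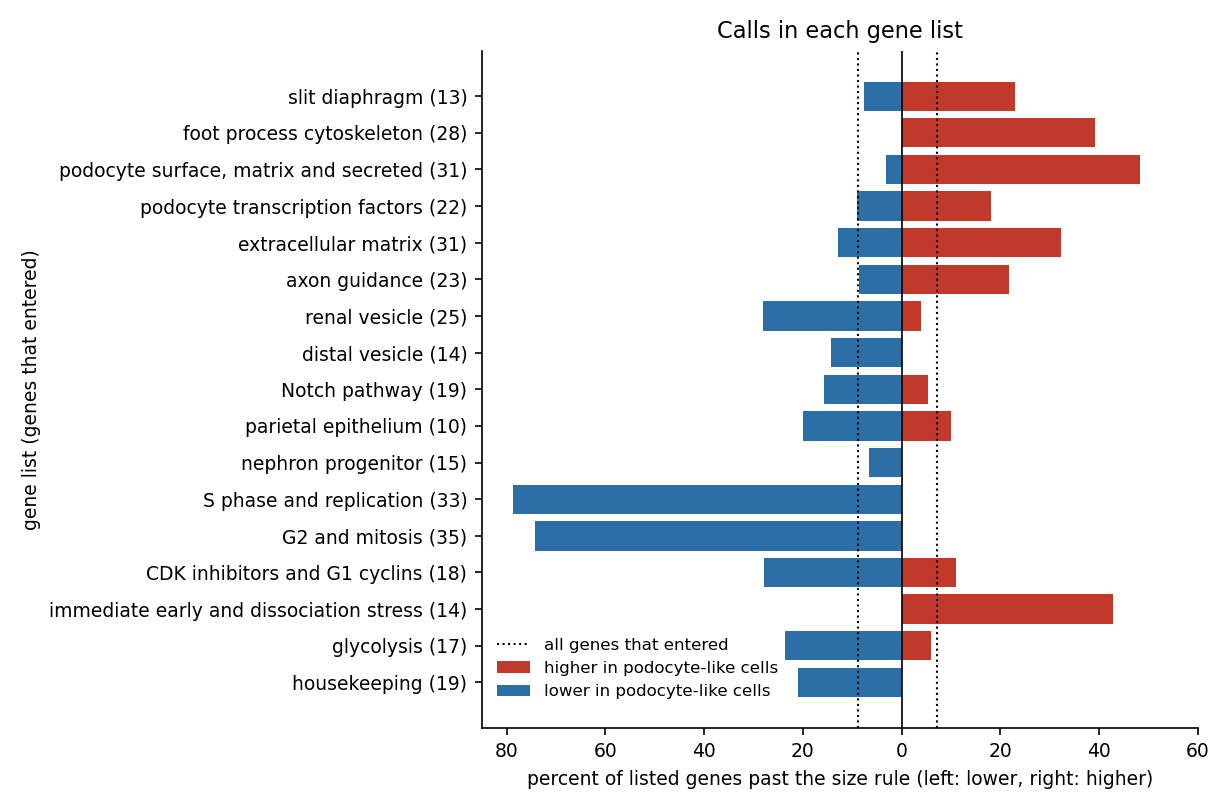
Percent of the genes that entered in each of 17 lists that were called higher (right) or lower (left) in podocyte-like cells, with the number of genes in brackets and dotted lines at 7.09% and 8.79%, the shares over all genes. The S phase list reaches 78.8% lower and the podocyte surface list 48.4% higher.

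The authors' deposited table of 787 genes sets proximal against distal vesicle cells by a signed fold, over 28 cells that include 17 of the 32 other Wt1 cells and no podocyte-like cell. Because both comparisons share those 17 cells, their values are set side by side only. In the authors' deposited table, Tmem100 and H19 had the largest proximal folds, at 173 and 115, and both were lower in podocyte-like cells. Plat had a proximal fold of 35.8 in the authors' deposited table and was higher in podocyte-like cells. Npy and Mcm7 had proximal folds of 11.1 and 6.38 in the authors' deposited table, with differences of -6.83 and -6.76 here. Bmp7, Dpp4 and Nrp1 had distal folds of -9.67, -5.11 and -11.1 in the authors' deposited table and were higher in podocyte-like cells. Wfdc2, Lhx1, Cd24a, Jag1 and Sfrp2 had distal folds too, of -8.18, -4.90, -3.50, -2.41 and -2.21 in the authors' deposited table, and were lower in podocyte-like cells. Proximal and distal genes of the authors' deposited table thus both included higher and lower genes.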

How the data were processed

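RNA of 57 single cells was measured. The authors deposited a table of 12087 genes with RPKM values, not logged, per the file headers, and a count of cells above RPKM 3 for each gene, which was checked against the values in all 12087 genes. Since that count is never below 2, genes low in nearly every cell have no row. A second deposited table holds RPKM values and the authors' signed fold, treated here as a score. TopHat 1.4.1, DESeq and mm9 are named in the submitters' processing notes without their role. The counting and the annotation are not given in the sources used here. Numbers of reads per gene were not used here, so there was no count model. The kit keeps no strand and no molecular identifiers, so antisense and overlapping genes cannot be told apart.

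Values were taken as log2(RPKM + 1) in Python 3.11.15 with pandas 2.3.3, and the script was tested on simulated data. No doublet caller was run. Of 573 entries in 25 gene lists, 456 had values. The 46 rows with a repeated symbol were left out of the lists. The classes, members and lists were chosen with earlier results of these data known. Named are the rule genes, the 8 largest differences of a list (12 in the podocyte, vesicle and cell cycle lists), the 15 largest in each direction, and genes without overlap, except some not reported here. Other genes of a list are named to show members that did not pass. Alternatives covered the pseudocount, filters, limits of the classes, scaling, the size rule, medians and leaving out each podocyte-like cell.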

Additional observations from a re-analysis of the deposited data

Results flagged for a closer look

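Signal of podocyte genes appeared in 3 cells that belong to neither class. Synpo stood at RPKM 22.3 in cell 13 and at 59.3 in cell 53, although it was listed at 0 in all 32 other Wt1 cells. Cell 53 also had Tcf21 at 1194 and Frem1 at 138, with Wt1 at 0.33, Podxl and Nphs1 listed at 0, Pdgfrb at 369.6 and Acta2 at 859.7. Cell 13 had Tcf21 at 548, Col3a1 at 231 and Dcn at 349, with Wt1 at 35.3 and Podxl listed at 0. Ptpro stood at 49.3 in cell 46, which had Wt1 at 0.786 and Podxl and Synpo listed at 0. Cell 46 had the macrophage gene C1qb at 2092. What these values stem from was not tested.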

How the results depend on the processing

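No setting turned the direction of the podocyte, S phase, G2 and mitosis, vesicle or immediate early lists. With a pseudocount of 0.1 there were 1147 higher genes, and the list differences were 1.93 (podocyte), -4.75 (S phase), -3.98 (G2 and mitosis) and -2.23 (vesicle). With 10 there were 194 higher and 196 lower genes, and the differences were 0.732, -1.87, -1.46 and -0.891 in that order. Keeping genes with mean RPKM of 10 or more gave -2.39 for the vesicle and 2.86 for the immediate early list. Leaving out each podocyte-like cell gave 1110 to 1165 higher genes, with 1 detecting cell then enough for a call. These kept 521 to 550 of the 740 higher genes of the main comparison. Against all other cells with Pax8 at RPKM 5 or more, S phase was -3.10 and the vesicle list -1.81. Rescaling cells to 1 upper quartile gave 1.54 for podocyte genes. Without the lowest quartile of cells by genes detected, 1 podocyte-like cell (cell 10) remained, with 1613 higher and 1522 lower genes and differences of 1.21, -4.03, -3.32 and -1.78. A size rule of 1 gave 1397 higher and 1603 lower genes, a rule of 3 gave 318 and 346, and medians gave 1125 higher genes. Against the 9 cells with no more genes detected, chosen after seeing the data, 536 of 6398 genes were lower. These kept 436 of the 917 lower genes of the main comparison. The list differences were 1.66 (podocyte), -2.43 (S phase), -1.65 (G2 and mitosis) and -1.17 (vesicle). CDK inhibitors and G1 cyclins, at -0.13, turned to 0.0418 (pseudocount 10), 0.0077 (mean filter), 0.0639 (Pax8 cells), 0.0051 (rescaled) and 0.203 (9 cells). With only cell 10, the differences of Fyn, Palld and Zfp36 were -1.28, -1.01 and -0.149. The causes were not tested. A podocyte-like limit of Wt1 200 left the same 3 and 32 cells, and the 21 other Wt1 cells with Wt1 at 100 or more gave 731 higher and 893 lower genes. Only 1 group of samples exists, so no paired analysis was possible because no groups share replicate numbers. With 3 cells of 1 pool, no spread between animals can be given, and low genes cannot be told from genes that were missed.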
